A study of Mus musculus with 36 samples.

Results

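The hearts compared here were taken at 4 pm from mice labelled as lacking KLF15 (cK15) and from control mice, and all 10600 gene entries that could be tested were described. The 6 libraries of that time, 3 per genotype, were chosen by their labelled genotype and hour from the 36 libraries of the study, which sampled both genotypes at 6 times of day. Controls were mice with the alpha-MHC cre transgene, whose promoter drives Cre in heart muscle cells, and the labels give the cK15 mice as KLF15 KO without saying how or in which cells the gene was removed. All groups were male C57BL/6J mice of 11 to 12 weeks kept under 12 h of light and 12 h of dark, with no other treatment named. RNA came from the apex of the heart, was depleted of ribosomal RNA and was sequenced as stranded total RNA. Libraries carried replicate numbers 2, 3 and 4 in control and 1, 3 and 4 in cK15, and values are listed in those orders throughout. Separate animals for the libraries within each group are not stated in the labels. The p-values therefore rest on how far libraries spread within groups, pooled over all 36 libraries and not the 6 alone. That spread may be technical. Values are FPKM, fragment numbers scaled to gene length and to the size of the library, as the authors deposited them.

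KLF15 is a zinc-finger transcription factor of the Kruppel-like family, whose members bind GC-rich and CACCC elements. It is known in heart, muscle and liver as a regulator of amino acid, lipid and glucose use that follows feeding, glucocorticoids and the circadian clock. The adult heart draws most of its energy from fatty acids in mitochondria, with glucose, ketone bodies and amino acids as further fuels.

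The 6 libraries summed to between 568203 and 667609 FPKM, with 10365 to 10724 genes of at least 1 FPKM each, and the absolute depth is unknown. An exact 0 can be a failed estimate, since Ttn (titin, the giant sarcomere protein) was listed at 0 in all 6. One library of each of the study's 12 groups stood apart by a low level of the myosin light chain Myl2. At 4 pm these were cK15 replicate 1 and control replicate 2, with Myl2 at 34929 and 31089 FPKM against 48324 to 61710 FPKM in the other four. Their log2 values correlated more closely with each other (r = 0.986 across genes) than cK15 replicate 1 did with the other cK15 libraries (0.977 and 0.980). Low values gave a further measure. Within the other four libraries, 28.0% to 54.3% of the ratios between libraries for genes of low level fell in 1 bin 0.03 log2 units wide, as whole reads divided by the same gene lengths would. The share was 28.7% between cK15 replicate 1 and control replicate 2, and 2.61% to 4.31% between these and the other four. Among the other four the most frequent ratio was at most 1.38-fold, which bounds their relative depth on that reading. Each genotype thus held 1 library of one kind and 2 of the other. Where the call of a named gene was lost without this pair, the adjusted p without it is given.

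Hearts labelled cK15 at 4 pm had less RNA of many enzymes that break down amino acids and fatty acids, such as Bckdhb, Fah and Slc25a20, and of the glutathione transferases Gstm2 and Gstk1. Few genes were higher, among them Pigh, Hsd11b1 and Nr4a1. Of these, Hsd11b1 did not pass without control replicate 4, and Nr4a1 did not pass without most single libraries. Of 10600 genes tested, 139 (1.31%) passed an adjusted p under 0.05, called here a change. Of these, 118 (1.11%) fell and 21 (0.198%) rose, the shares beside which the counts of passing genes in lists stand. The genes were tested with limma on log2(FPKM + 1), over which the Benjamini-Hochberg adjustment ran, and every difference below is cK15 minus control on that scale. The added 1 shrinks the differences of weakly expressed genes. A fall of at least 2-fold was reached by 40 of the 118 and a rise of at least 2-fold by 3 of the 21. The median difference over all tested genes was -0.0076, with 5480 of the 10600 below 0 and 5113 above it. In the limma test 894 of the 10600 had an unadjusted p under 0.05, the share beside which such counts in lists stand. Values did not overlap between genotypes for 1258 genes (11.9%), with cK15 below control for 785 and above it for 473. All 139 genes that passed were among these 1258, so a lack of overlap sets none of them apart from the others. At the threshold, 2310002L09Rik (log2 difference -1.09, adjusted p = 0.0481) and Ehbp1l1 (log2 difference 0.34, adjusted p = 0.0492) lay just inside, and Fndc9 (log2 difference -1.98, adjusted p = 0.0501) and Cilp (log2 difference -0.87, adjusted p = 0.0507) just outside. The calls of 2310002L09Rik (adjusted p = 0.0617) and Ehbp1l1 (adjusted p = 0.3875) were lost without the pair that stands apart. Without cK15 replicate 1 and control replicate 2, with 2 libraries a genotype left, 80 genes passed, of which 74 fell and 6 rose. With all libraries kept and a term for the 12 libraries that stand apart, 318 passed, of which 225 fell and 93 rose, and with the replicate number as a block 179 passed, of which 139 fell and 40 rose. The number of rises therefore depended strongly on how this spread was handled, while falls outnumbered rises in each of these fits.

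**Figure D1:**
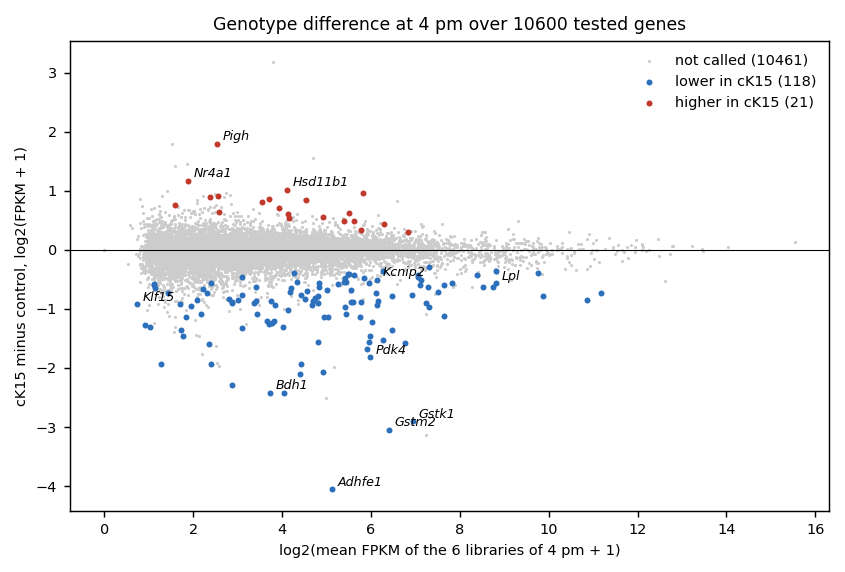
Difference between cK15 and control at 4 pm, log2(FPKM + 1), against log2 of the mean FPKM of the 6 libraries plus 1, for the 10600 tested genes. Blue points are the 118 genes that fell, red points the 21 that rose and grey points those that did not pass. Most points that passed lie below 0, and Adhfe1 lies lowest at -4.05.

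Klf15 (chromosome 6, 90462576 to 90475238, GRCm38, GENCODE M21) was measured at 1.19, 1.64 and 0.726 FPKM in control and 0.0997, 0.326 and 0 FPKM in cK15. The highest cK15 library was under the lowest control library, at a low level in both. The difference passed (log2 difference -0.92, SE 0.24, adjusted p = 0.0430), but the call was lost without any 1 of the libraries other than control replicate 4 (adjusted p 0.0510 to 0.294, and 0.320 without the pair that stands apart). The deposited values are per gene, so reads from any part of the gene that was left in place count toward them.

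The lowest difference of all tested genes belonged to Adhfe1 (chromosome 1, 9547948 to 9580673), the mitochondrial hydroxyacid-oxoacid transhydrogenase that oxidises 4-hydroxybutyrate. It was at 76.5, 61 and 58.1 FPKM in control and 3.13, 4.08 and 1.97 FPKM in cK15 (log2 difference -4.05, SE 0.20, adjusted p = 3.21e-15). The groups lay far apart, and the antisense gene 2610203C22Rik, which overlaps it, fell as well (log2 difference -1.59, adjusted p = 4.31e-06). The sources used here do not give whether the counting used strand, so reads of this pair may not be told apart.

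Gstm2, a mu-class glutathione transferase that conjugates electrophiles, was at 149, 134 and 168 FPKM in control and 15.97, 18.5 and 17.4 FPKM in cK15 (log2 difference -3.04, SE 0.13, adjusted p = 3.44e-16). Gstk1, the kappa-class transferase of mitochondria and peroxisomes, was at 199, 228 and 220.5 FPKM in control and 24.3, 33.5 and 26.7 FPKM in cK15 (log2 difference -2.90, SE 0.14, adjusted p = 3.21e-15). In both genes the highest cK15 library lay under every control library by a wide margin, and the cK15 libraries lay close together. Gstm7, another mu-class gene, was at 46.5, 51.2 and 45.7 FPKM in control and 11.7, 11.6 and 8.85 FPKM in cK15 (log2 difference -2.07, SE 0.15, adjusted p = 2.57e-11). The mu-class genes are related copies, and how reads that match several of them were counted is not known here. Of the 27 tested genes of glutathione metabolism and peroxide defence, a list that does not hold Gstm7, 3 fell and none rose, against 1.11% falling over all genes. The median was -0.07 against -0.0076 over all genes. The third to fall was Gstm1 (log2 difference -0.59, adjusted p = 1.36e-04).

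Bdh1, the mitochondrial enzyme that interconverts the ketone bodies acetoacetate and 3-hydroxybutyrate, was at 20.8, 16.1 and 26.6 FPKM in control and 3.77, 4.94 and 1.37 FPKM in cK15 (log2 difference -2.42, SE 0.41, adjusted p = 4.37e-04). The cK15 values spread more widely than those of the transferases but stayed under all control values. Acat1, which splits acetoacetyl-CoA, also fell (log2 difference -0.43, adjusted p = 0.00365), while Oxct1, which activates acetoacetate, did not pass (log2 difference 0.15, adjusted p = 0.780).

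**Figure D2:**
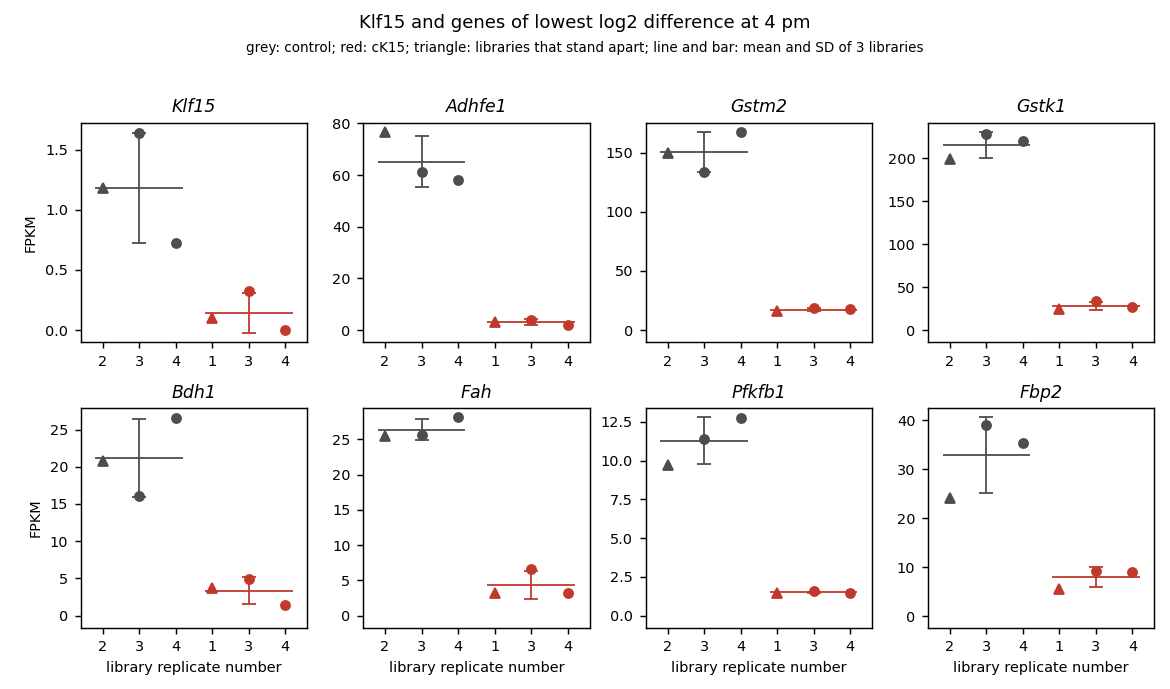
FPKM at 4 pm in each library (x axis, replicate number) for Klf15 and 7 genes that fell, with grey for control, red for cK15, triangles for the pair of libraries that stands apart, and lines and bars for the mean and SD of 3 libraries. In each panel all 3 cK15 libraries lie below all 3 control libraries, and the triangles lie with their own genotype.

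Sequences upstream of the start sites are shown for the genes of lowest and highest difference that had an entry in the RefSeq promoter table (GRCm38.p6), because they are where a factor that binds CACCC would be looked for first. Each run is the 250 bases before the first listed start, 5′ to 3′ on the strand of the gene, with capitals for CACCC or its reverse complement GGGTG and for TGACG (the core of the cyclic AMP response element) or its reverse complement CGTCA. Adhfe1 was not matched.
Gstm2, chr3:107986421-107986670 (minus strand): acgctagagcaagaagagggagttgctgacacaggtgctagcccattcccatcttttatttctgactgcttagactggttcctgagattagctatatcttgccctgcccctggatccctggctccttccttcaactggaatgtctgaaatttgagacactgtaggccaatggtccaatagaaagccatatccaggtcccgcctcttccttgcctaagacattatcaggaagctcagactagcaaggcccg
Gstk1, chr6:42245685-42245934 (plus strand): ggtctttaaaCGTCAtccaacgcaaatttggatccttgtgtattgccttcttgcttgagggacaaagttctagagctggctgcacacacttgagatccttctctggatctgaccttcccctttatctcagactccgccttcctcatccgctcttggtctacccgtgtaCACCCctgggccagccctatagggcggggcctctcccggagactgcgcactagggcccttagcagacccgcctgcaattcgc
Bdh1, chr16:31422047-31422296 (plus strand): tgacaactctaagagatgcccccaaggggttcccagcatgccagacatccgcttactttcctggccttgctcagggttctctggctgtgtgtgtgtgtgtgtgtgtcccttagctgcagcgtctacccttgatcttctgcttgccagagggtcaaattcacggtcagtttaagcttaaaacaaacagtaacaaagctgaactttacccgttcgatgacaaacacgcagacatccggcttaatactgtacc
Pigh, chr12:79089671-79089920 (minus strand): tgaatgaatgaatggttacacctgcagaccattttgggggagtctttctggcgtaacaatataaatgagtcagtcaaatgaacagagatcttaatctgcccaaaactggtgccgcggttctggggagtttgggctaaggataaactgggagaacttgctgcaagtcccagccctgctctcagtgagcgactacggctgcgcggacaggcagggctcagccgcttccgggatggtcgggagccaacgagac
Nr4a1, chr15:101266596-101266845 (plus strand): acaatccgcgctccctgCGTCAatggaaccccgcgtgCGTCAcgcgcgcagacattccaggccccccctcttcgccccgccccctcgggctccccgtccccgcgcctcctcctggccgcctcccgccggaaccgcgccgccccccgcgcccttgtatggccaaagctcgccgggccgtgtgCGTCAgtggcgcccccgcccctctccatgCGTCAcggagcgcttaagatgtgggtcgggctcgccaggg
The Gstk1 window held 1 match to each motif, and the Nr4a1 window, of a cyclic AMP responsive gene, held 4 matches to the second. CACCC or GGGTG lay in 67.0% of the 88 matched genes that fell, in 47.4% of the 19 that rose, in 57.0% of the 7945 tested genes matched by symbol and in 51.3% of all 27025 promoters of the table. TGACG or CGTCA lay in 20.5% of the genes that fell, in 31.6% of those that rose, in 28.1% of the tested genes and in 17.9% of all promoters. These shares are descriptions without a test, they also follow base composition, and a match is not a binding site.

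Amino acid breakdown held the largest number of falling genes among the lists examined. Of 25 tested genes of branched-chain amino acid breakdown, the pathway that takes leucine, isoleucine and valine to CoA esters in mitochondria, 12 fell and none rose, against 1.11% falling over all genes. The list median was -0.43, and the summed level was 2365 to 2554 FPKM in cK15 against 3300 to 3376 FPKM in control. Bcat2, the mitochondrial aminotransferase that starts the pathway, was at 67.2, 73.1 and 80.1 FPKM in control and 28.8, 36.3 and 34.3 FPKM in cK15 (log2 difference -1.13, SE 0.11, adjusted p = 4.37e-08). Bckdha and Bckdhb encode the decarboxylase subunits of the complex that commits the keto acids. Bckdhb was at 90.4, 91.9 and 87.7 FPKM in control and 32.5, 21.4 and 29.1 FPKM in cK15 (log2 difference -1.69, SE 0.14, adjusted p = 6.59e-10). Bckdha was at 213, 215 and 195 FPKM in control and 115, 96.9 and 104 FPKM in cK15 (log2 difference -0.98, SE 0.11, adjusted p = 3.54e-07). In both subunits the groups did not overlap, and the control libraries lay close together. Ivd, the leucine-branch dehydrogenase, was at 278, 278 and 263 FPKM in control and 128, 117 and 129 FPKM in cK15 (log2 difference -1.12, SE 0.079, adjusted p = 2.50e-11). Aldh6a1, the valine-branch methylmalonate semialdehyde dehydrogenase, was at 108, 87.2 and 79.6 FPKM in control and 36.7, 27.4 and 26.9 FPKM in cK15 (log2 difference -1.56, SE 0.21, adjusted p = 1.40e-05). Members of the valine, leucine and isoleucine branches and of the shared first steps were among the 12. As members chosen after their values were seen, Dld, the third subunit of the complex (log2 difference 0.22, adjusted p = 0.435), and the complex's kinase Bckdk (log2 difference -0.07, adjusted p = 0.982) did not pass.

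Of 31 tested enzymes of other amino acids, 10 fell and none rose, against 1.11% falling over all genes, with a median of -0.21. Fah, the last enzyme of tyrosine breakdown, was at 25.5, 25.6 and 28.1 FPKM in control and 3.22, 6.60 and 3.20 FPKM in cK15 (log2 difference -2.42, SE 0.26, adjusted p = 1.95e-07). Ccbl2, a kynurenine aminotransferase, was at 32.9, 34.5 and 32.7 FPKM in control and 7.01, 5.83 and 8.25 FPKM in cK15 (log2 difference -2.11, SE 0.11, adjusted p = 1.86e-14). Both had control libraries close together and cK15 libraries well below. Cth, which makes cysteine from cystathionine, was at 3.63, 2.49 and 2.46 FPKM in control, and each of the 3 cK15 libraries listed it at 0 (adjusted p = 1.95e-07), so no fold is given. Abat, which removes the amino group from GABA, was at 4.53, 4.20 and 3.25 FPKM in control and 0.909, 0.645 and 0.904 FPKM in cK15 (log2 difference -1.45, SE 0.18, adjusted p = 4.31e-06). Prodh and Aldh4a1, the consecutive mitochondrial enzymes from proline to glutamate, both fell, with log2 differences of -1.20 (adjusted p = 1.01e-04) and -0.90 (adjusted p = 2.62e-06). Gcdh of lysine and tryptophan breakdown (log2 difference -1.09, adjusted p = 1.47e-07) and the ornithine aminotransferase Oat (log2 difference -0.77, adjusted p = 5.76e-09) fell as well.

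Genes that handle fatty acids fell in part. Of 33 tested genes of fatty acid uptake and oxidation, 10 fell and none rose, against 1.11% falling over all genes, and the median was -0.36. A difference below 0 was found in 31 of the 33, against 5480 of 10600 over all genes. Pdk4, the kinase that restrains pyruvate entry into mitochondria and is counted with this list, was at 94.8, 92.6 and 103 FPKM in control and 21.1, 36.6 and 24.6 FPKM in cK15 (log2 difference -1.82, SE 0.29, adjusted p = 2.25e-04). Lpl, the lipase that releases fatty acids from lipoproteins at the vessel wall, was at 532, 525 and 560.0 FPKM in control and 361, 386 and 344 FPKM in cK15 (log2 difference -0.57, SE 0.11, adjusted p = 0.00172). Slc25a20, the carnitine carrier of the inner mitochondrial membrane, was at 217, 235 and 222 FPKM in control and 123, 141 and 146 FPKM in cK15 (log2 difference -0.72, SE 0.11, adjusted p = 1.32e-04). These 3 genes differed in level by more than the spread between libraries, with Pdk4 moving most. Acot1, a cytosolic acyl-CoA thioesterase whose near-identical copy Acot2 makes its reads uncertain, was at 1.98, 2.30 and 1.33 FPKM in control and 0, 0 and 0.543 FPKM in cK15 (log2 difference -1.30, adjusted p = 0.00635). Its call was lost without control replicate 3 (adjusted p = 0.0602, and 0.160 without the pair that stands apart). Cd36, the fatty acid translocase, was at 1771, 1348 and 1277 FPKM in control and 1375, 1156 and 973 FPKM in cK15 and did not pass (log2 difference -0.33, adjusted p = 0.818). The list's summed level, which its few most abundant genes set, was 15041 to 18736 FPKM in cK15 and 19420 to 24162 FPKM in control.

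Pxmp2, a channel of the peroxisomal membrane, was at 101, 92.4 and 81.4 FPKM in control and 38.9, 26.8 and 33.4 FPKM in cK15 (log2 difference -1.46, SE 0.16, adjusted p = 2.33e-07). It was among the 20 genes of lowest difference, and its values did not overlap between genotypes. Of 14 tested genes of lipid droplets and triglyceride, 3 fell and none rose, against 1.11% falling over all genes. They were the acyltransferase Gpam (log2 difference -0.60, adjusted p = 0.00101) and the droplet coat proteins Plin2 (log2 difference -0.57, adjusted p = 0.00174) and Plin5 (log2 difference -0.48, adjusted p = 0.0355). The median was -0.0044, near that of all genes, and the Plin5 call was lost without any 1 of the libraries other than cK15 replicate 3 (adjusted p 0.0515 to 0.286, and 0.181 without the pair that stands apart). None of 10 regulators of metabolic genes passed the limma test, where 2 had an unadjusted p under 0.05, and these 10 had a median of 0.13. They include the fatty acid receptors Ppara (log2 difference -0.11, adjusted p = 0.993) and Ppard (log2 difference 0.13, adjusted p = 0.982).

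Of 28 tested genes of glucose uptake and glycolysis, 2 fell and none rose, against 1.11% falling over all genes, and the median was 0.0076. Pfkfb1, which makes and removes the glycolytic activator fructose 2,6-bisphosphate, was at 9.70, 11.4 and 12.7 FPKM in control and 1.47, 1.56 and 1.46 FPKM in cK15 (log2 difference -2.29, SE 0.28, adjusted p = 3.76e-06). Fbp2, the muscle fructose bisphosphatase, was at 24.2, 39.1 and 35.4 FPKM in control and 5.56, 9.22 and 8.94 FPKM in cK15 (log2 difference -1.93, SE 0.27, adjusted p = 2.27e-05). Both are enzymes of the fructose phosphates, and in both the highest cK15 library was under the lowest control library. The glucose transporters Slc2a1 (log2 difference 0.01, adjusted p = 1.00) and Slc2a4 (log2 difference -0.07, adjusted p = 1.00) did not pass. Of 14 glycogen genes, 1 rose, against 0.198% rising over all genes. This was Phkg1, the muscle catalytic subunit of phosphorylase kinase, at 15.8, 17.9 and 12.96 FPKM in control and 25.5, 32.6 and 27.8 FPKM in cK15 (log2 difference 0.84, SE 0.17, adjusted p = 0.00350). All cK15 libraries lay above all control libraries, and the call was lost without control replicate 4 (adjusted p = 0.0516). Phkg1 overlaps Sumf2, a homologue of the sulfatase-modifying factor, on the other strand, and Sumf2 also rose (log2 difference 0.54, adjusted p = 0.0291), a call lost without any 1 of the libraries other than cK15 replicate 1 (adjusted p 0.0666 to 0.181, and 0.0808 without the pair that stands apart).

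The core of mitochondrial energy metabolism showed few calls, beside 1.11% falling and 0.198% rising over all genes. Of 16 citric acid cycle genes, 1 fell, the succinyl-CoA ligase subunit Suclg2 (log2 difference -0.30, adjusted p = 0.0475), and its call was lost without any 1 of the 6 libraries (adjusted p 0.0817 to 0.273, and 0.189 without the pair that stands apart). Of 17 genes of oxidative phosphorylation, 1 fell, the muscle cytochrome oxidase subunit Cox6a2 (log2 difference -0.85, adjusted p = 0.0111), a call lost without cK15 replicate 4 or control replicate 2 (adjusted p 0.0930 to 0.134). Their medians were 0.035 and 0.029. Citrate synthase Cs (log2 difference 0.10, adjusted p = 0.991) and the complex subunit Ndufa9 (log2 difference 0.01, adjusted p = 1.00) did not pass. Hspe1, the mitochondrial co-chaperonin, was the only one of 12 heat shock genes to pass, at 99.5, 113 and 124 FPKM in control and 73.1, 62.7 and 57.6 FPKM in cK15 (log2 difference -0.79, SE 0.12, adjusted p = 1.26e-04). Its groups did not overlap. No gene passed the limma test among 16 of endoplasmic reticulum folding, 15 of autophagy and atrophy, 11 of sterol synthesis or 9 of polyamines and NAD, where 3, 2, 1 and 3 genes had an unadjusted p under 0.05. Over all tested genes, 894 of 10600 had one.

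**Figure D3:**
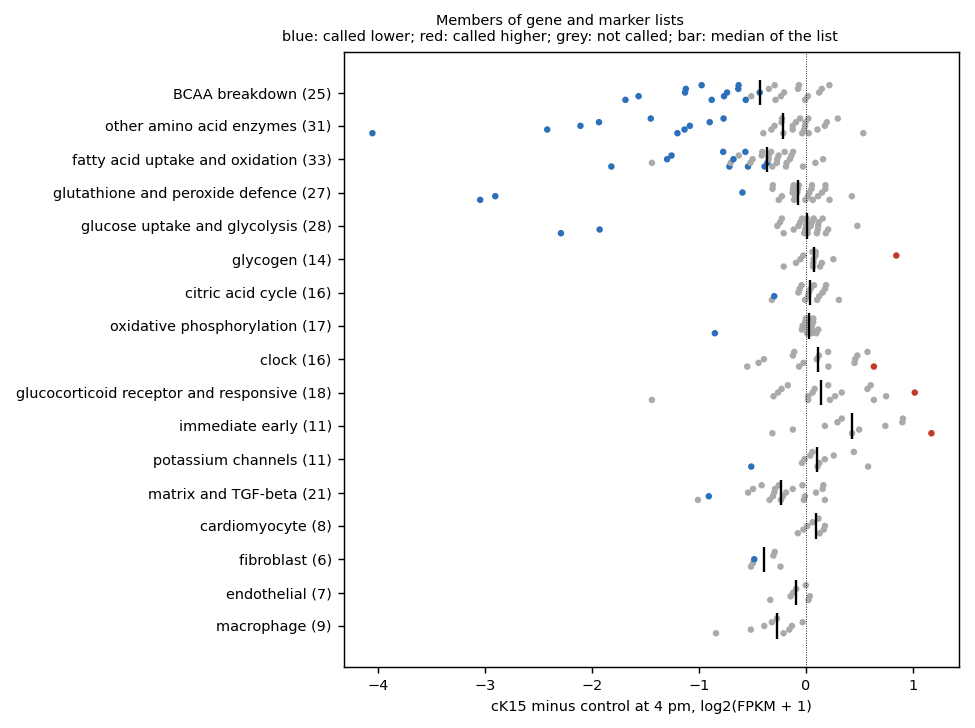
Differences between cK15 and control at 4 pm (x axis, log2(FPKM + 1)) for the tested members of 17 gene and marker lists (rows, number tested in brackets), with blue for genes that fell, red for genes that rose, grey for those that did not pass and a bar for the list median. The bars of branched-chain amino acid breakdown (-0.43) and fatty acid use (-0.36) lie left of 0, and that of oxidative phosphorylation (0.029) lies near it.

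Other genes of low difference belonged to no list. Selenbp1, a selenium-binding protein that oxidises methanethiol, was at 153, 171 and 163 FPKM in control and 52.4, 54.3 and 54.5 FPKM in cK15 (log2 difference -1.58, SE 0.12, adjusted p = 9.83e-11). Isoc2a was at 39.4, 39.04 and 44.4 FPKM in control and 13.8, 13.2 and 12.6 FPKM in cK15 (log2 difference -1.56, SE 0.13, adjusted p = 2.34e-09). Both had all cK15 libraries well below control. 2210407C18Rik was at 5.22, 7.31 and 9.57 FPKM in control and 1.06, 0.971 and 1.41 FPKM in cK15 (log2 difference -1.93, adjusted p = 0.0320), and its call was lost without any 1 of the libraries other than control replicate 2 (adjusted p 0.0846 to 0.184, and 0.138 without the pair that stands apart). With 0.5 or 0.1 added to FPKM in place of 1, that call was lost as well (adjusted p = 0.0917 and 0.435).

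The 21 genes that rose included enzymes, a nuclear receptor, a clock gene and phosphodiesterases. Pigh, which encodes a subunit of the enzyme that starts glycosylphosphatidylinositol anchors, was at 2.26, 1.33 and 1.27 FPKM in control and 7.40, 7.30 and 9.35 FPKM in cK15 (log2 difference 1.79, SE 0.27, adjusted p = 8.40e-05). All cK15 libraries lay far above control, and Pigh was the only rise kept under every alternative processing that gave it a value. It overlaps Plekhh1 on the other strand, which was at 2.997, 3.06 and 3.25 FPKM in control and 7.19, 6.69 and 6.16 FPKM in cK15 (log2 difference 0.90, SE 0.16, adjusted p = 0.00131), and reads of this pair may not be told apart. Plekhh1 missed the threshold with the pair that stands apart left out (adjusted p = 0.0525).

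Hsd11b1, which regenerates active glucocorticoid from its inert form, was at 13.8, 9.62 and 8.21 FPKM in control and 21.4, 23.3 and 21.1 FPKM in cK15 (log2 difference 1.02, SE 0.20, adjusted p = 0.00318). The lowest cK15 library lay above the highest control library, and the call was lost without control replicate 4 (adjusted p = 0.0505). It was the only gene of 18 of the glucocorticoid receptor and its responsive genes that passed, where 0.198% of all genes rose. The glucocorticoid receptor Nr3c1 was at 10.04, 7.60 and 9.87 FPKM in control and 9.95, 9.12 and 9.59 FPKM in cK15 (log2 difference 0.06, adjusted p = 0.999). The list median was 0.14, and 6 of the 18 had all cK15 libraries above control and 2 all below, against 4.46% and 7.41% of all tested genes.

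Nr4a1, an orphan nuclear receptor and immediate early gene, was at 0.693, 1.26 and 1.87 FPKM in control and 5.39, 3.60 and 3.28 FPKM in cK15 (log2 difference 1.17, SE 0.29, adjusted p = 0.0293). The groups did not overlap, but the call was lost without any 1 of the libraries other than control replicate 4 (adjusted p 0.0517 to 0.208, and 0.577 without the pair that stands apart). With 0.5 or 0.1 added to FPKM in place of 1, the call was lost as well (adjusted p = 0.113 and 0.449). Nr4a1 was the only gene to pass among 11 immediate early genes tested of 23 fixed, the rest being below the filter on low values. The median of these 11 was 0.43. Of them, 4 had all cK15 libraries above control and none all below, against 4.46% and 7.41% of all tested genes. A member passes the filter more easily where some libraries are high, so the 11 do not stand for the 23.

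Of 16 tested clock genes, Per2, a repressor of the core loop, rose and none fell, against 0.198% rising over all genes. Per2 was at 3.96, 3.95 and 3.27 FPKM in control and 6.57, 6.24 and 6.15 FPKM in cK15 (log2 difference 0.63, SE 0.16, adjusted p = 0.0299). All cK15 libraries lay above control, and the call was lost without any 1 of the 6 libraries (adjusted p 0.0646 to 0.186, and 0.201 without the pair that stands apart). With 0.5 or 0.1 added to FPKM in place of 1, it was lost as well (adjusted p = 0.0564 and 0.105). The activators Arntl (1.99, 2.33 and 2.25 FPKM in control and 1.01, 1.52 and 1.55 FPKM in cK15, log2 difference -0.44, adjusted p = 0.697) and Clock (log2 difference -0.06, adjusted p = 1.00) did not pass. The median of the 16 was 0.11. In Arntl no cK15 library reached the lowest control library.

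Aldh1l1, a folate enzyme that oxidises 10-formyltetrahydrofolate, was at 2.87, 2.59 and 2.54 FPKM in control and 5.53, 6.30 and 5.62 FPKM in cK15 (log2 difference 0.89, SE 0.21, adjusted p = 0.0212). The groups did not overlap, and the call was lost without any 1 of the 6 libraries (adjusted p 0.0515 to 0.0959, and 0.111 without the pair that stands apart). In the GENCODE M21 annotation Aldh1l1 (chromosome 6, 90486427 to 90600203) starts 11188 bases past the end of Klf15 on the same strand. Among 138 genes that passed and had a position, 7 pairs lay within 20000 bases of each other, and Klf15 with Aldh1l1 was the only pair whose members passed in opposite directions. The other 6 pairs, chosen like this one after their values were seen, were Adhfe1 with 2610203C22Rik, Phkg1 with Sumf2, Pigh with Plekhh1, Aldh6a1 with Lin52, Ech1 with Lgals4 and Pxmp2 with Pole. The first 3 of these overlap, and Pxmp2 and Pole start 119 bases apart on opposite strands. The calls of Lin52 (adjusted p = 0.538), Pole (adjusted p = 0.368) and Ech1 (adjusted p = 0.0548) were lost without the pair of libraries that stands apart.

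**Figure D4:**
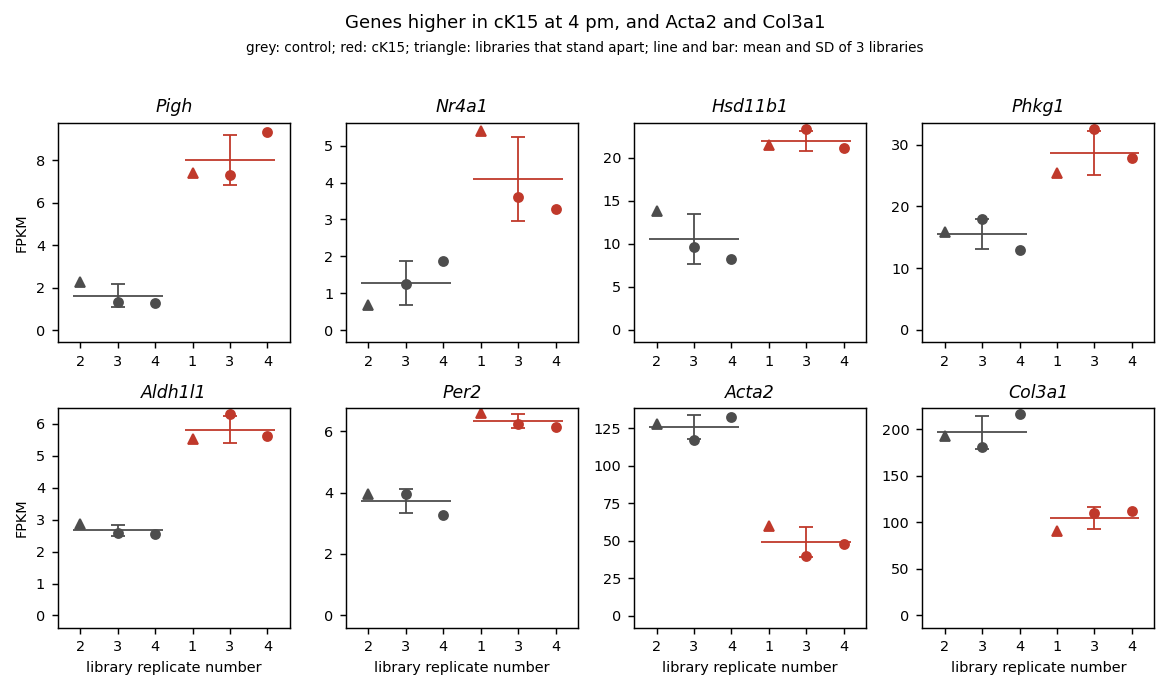
FPKM at 4 pm in each library (x axis, replicate number) for 6 genes that rose and for Acta2 and Col3a1, which fell, with grey for control, red for cK15, triangles for the pair of libraries that stands apart, and lines and bars for the mean and SD of 3 libraries. The genotypes do not overlap in any panel, and Pigh shows the widest gap relative to its level.

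Among the remaining genes that rose, Ide, the insulin-degrading protease, was at 41.96, 35.97 and 33.3 FPKM in control and 74.8, 62.2 and 84.2 FPKM in cK15 (log2 difference 0.97, adjusted p = 0.0209), and its call was lost without cK15 replicate 1, cK15 replicate 4, control replicate 3 or control replicate 4 (adjusted p 0.0796 to 0.140, and 0.103 without the pair that stands apart). Acsl6, an acyl-CoA synthetase, was at 10.5, 11.3 and 9.82 FPKM in control and 14.8, 22.3 and 16.9 FPKM in cK15 (log2 difference 0.70, adjusted p = 0.0289), lost without any 1 of the libraries other than cK15 replicate 1 (adjusted p 0.0675 to 0.216, and 0.0617 without the pair that stands apart). Pde1c, a calmodulin-dependent phosphodiesterase, was at 30.4, 40.7 and 34.2 FPKM in control and 53.9, 51.7 and 56.6 FPKM in cK15 (log2 difference 0.62, adjusted p = 0.00379), lost without control replicate 2 (adjusted p = 0.0519, and 0.138 without the pair that stands apart). Pde8a, which hydrolyses cyclic AMP, was at 12.1, 12.1 and 14.9 FPKM in control and 18.7, 21.8 and 20.4 FPKM in cK15 (log2 difference 0.60, adjusted p = 0.00743), lost without cK15 replicate 3, control replicate 2 or control replicate 3 (adjusted p 0.0519 to 0.0643, and 0.0687 without the pair that stands apart). The genotypes did not overlap in any of these, as in all 139 genes that passed, and most of the calls hung on single libraries. Htra1, a secreted serine protease, was at 47.2, 33.98 and 38.3 FPKM in control and 54.9, 60.5 and 52.7 FPKM in cK15 (log2 difference 0.49, adjusted p = 0.00434), a call lost without control replicate 3 (adjusted p = 0.0844). Stk39, a kinase that controls chloride cotransporters, was at 69.3, 59.96 and 67.7 FPKM in control and 85.3, 99.05 and 83.7 FPKM in cK15 (log2 difference 0.44, adjusted p = 0.0231), lost without cK15 replicate 3, control replicate 3 or control replicate 4 (adjusted p 0.0584 to 0.183, and 0.0627 without the pair that stands apart). The others, Sycp3, Gm16023, Cntn5, Ifrd1, Nt5dc2, Ehbp1l1 and Usp13, had differences of 0.30 to 0.87. Each of their calls was lost without the pair that stands apart (adjusted p 0.101 to 0.42). Of all 21 rises, 2 passed without each single library in turn, those of Pigh and Plekhh1, against 61 of the 118 falls.

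Ion channels and contractile genes were mostly without calls. Of 11 tested genes on the potassium channel list, 1 fell, against 1.11% falling over all genes. This was Kcnip2, the auxiliary subunit of the transient outward current, at 77.9, 79.5 and 89.4 FPKM in control and 53.2, 56.9 and 62.2 FPKM in cK15 (log2 difference -0.51, SE 0.099, adjusted p = 0.00296). The groups did not overlap, and the gene missed the threshold with the pair that stands apart left out (adjusted p = 0.0502). The pore subunit Kcnd2 of the same current did not pass (log2 difference 0.26, adjusted p = 0.951). Kcnt2, a potassium channel gene outside the list and chosen after its values were seen, also fell. Its call was lost without cK15 replicate 1, cK15 replicate 3 or control replicate 4 (adjusted p 0.081 to 0.254, and 0.111 without the pair that stands apart). None of 8 sodium, calcium and pacemaker channel genes passed the limma test, where 3 had an unadjusted p under 0.05. The closest was the sodium channel subunit Scn4b at 3.80, 3.43 and 3.86 FPKM in control and 1.02, 2.38 and 0.805 FPKM in cK15 (log2 difference -1.02, SE 0.27, adjusted p = 0.0593), with all cK15 libraries below control. None passed among 10 genes of calcium release, 14 of adrenergic and cyclic AMP signalling or 13 of insulin signalling, where 1, 2 and 2 had an unadjusted p under 0.05. These lists do not hold the phosphodiesterases Pde1c and Pde8a or the insulin-degrading protease Ide, which rose. Among 19 genes of the fetal and hypertrophy programme none passed and 3 had an unadjusted p under 0.05, with a median of 0.14. The natriuretic peptide Nppa was at 101, 92.6 and 94.6 FPKM in control and 89.7, 120.1 and 134 FPKM in cK15 (log2 difference 0.23, adjusted p = 0.995), and Nppb did not pass (log2 difference 0.10, adjusted p = 1.00). Of 9 Kruppel-like factors tested, Klf15 alone passed.

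Genes of the matrix and of fibroblasts were lower in part. Col3a1, a fibrillar collagen, was at 193, 181 and 216 FPKM in control and 91.2, 111 and 112 FPKM in cK15 (log2 difference -0.91, SE 0.13, adjusted p = 3.04e-05). It was the 1 of 21 matrix and TGF-beta genes that fell, against 1.11% falling over all genes, with none rising and a median of -0.23. Col1a1 (log2 difference -0.49, adjusted p = 0.740) and Col1a2 (log2 difference -0.30, adjusted p = 0.873) did not pass. Of 6 tested fibroblast markers, Dpt fell (log2 difference -0.48, adjusted p = 0.0319), a call lost without any 1 of the libraries other than cK15 replicate 3 (adjusted p 0.0866 to 0.207, and 0.438 without the pair that stands apart). All 6 were below 0, as were 5480 of all 10600 genes, with a median of -0.39. Their summed level was 1225 to 1385 FPKM in cK15 and 1474 to 1758 FPKM in control. Acta2, the smooth muscle actin, was at 128, 117 and 132 FPKM in control and 59.8, 39.9 and 47.9 FPKM in cK15 (log2 difference -1.35, SE 0.28, adjusted p = 0.00544), while Myh11, the smooth muscle myosin, did not pass (log2 difference 0.24, adjusted p = 0.971). The 7 smooth muscle and pericyte markers summed to 212 to 287 FPKM in cK15 and 316 to 413 FPKM in control, and Acta2 was the only one of them to pass. These sums were set mainly by Acta2 itself and by Rgs5, with a mean of 182 FPKM in control and 150 FPKM in cK15. Of the 7 markers 4 had a difference below 0, and 3 lay above it, namely Myh11, Tagln (log2 difference 0.08) and Cnn1 (log2 difference 0.23). In these bulk samples, fewer cells of a type and less RNA per cell cannot be told apart, and the part of fibroblast or smooth muscle content in the falls of Col3a1, Dpt and Acta2 was not tested.

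The libraries had the markers of heart muscle. The 8 cardiomyocyte markers summed to 63351 to 106296 FPKM in cK15 and 57496 to 101824 FPKM in control, with a median of 0.090, and none passed the limma test or had an unadjusted p under 0.05. Myl2, by which the libraries that stand apart were found, was the most abundant of them. Its mean was 45666 FPKM in control and 49672 FPKM in cK15, so the width of these ranges follows that set in part. Of the atrial markers, Sln and Bmp10 were listed at 0 in all 6 libraries, while Nppa was at the levels given above, Myl4 lay between 1.73 and 8.21 FPKM and Myl7 between 1.91 and 4.14 FPKM over the 6 libraries, with overlapping genotypes. Of the adipocyte markers, Adipoq, Lep and Ucp1 were listed at 0 in all 6, and Cidea, the only one that reached the filter, was at 28.9, 31.97 and 27.9 FPKM in control and 20.5, 23.95 and 21.7 FPKM in cK15 (log2 difference -0.41, adjusted p = 0.304). A listed 0 may be a failed estimate, as for Ttn, so the zeros alone do not show that these cells were absent. None of 8 lymphocyte markers reached the filter. The 7 endothelial markers (median -0.09) and the 9 macrophage markers (median -0.27) held no call, with 1 and 3 at an unadjusted p under 0.05. Macrophage markers summed to 175 to 246 FPKM in cK15 and 236 to 264 FPKM in control, and the ranges overlapped. All 9 macrophage markers had a difference below 0, as did 5480 of all 10600 genes, and the part of macrophage content in other falls was not tested. The 11 antigen presentation genes had a median of -0.56 between the libraries that stand apart and 0.069 among the other four, and none passed or had an unadjusted p under 0.05.

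Whether these differences are particular to 4 pm was asked by the difference of each gene at 4 pm minus the mean of its differences at the other 5 times, over all 36 libraries. No gene passed (0 of 10600, 0.0%), 229 had an unadjusted p under 0.05, and the smallest adjusted p was 1.00. The 229 are a smaller share of the 10600 than the 0.05 that evenly spread p-values would give. The cause of this shortfall was not tested. Of the 118 genes that fell at 4 pm, 49 also passed as lower at each of the other 5 times, and 22 passed at no other time. Of the 21 that rose, 11 passed at no other time. Passing at one time and not at another does not show a difference between the times. Among the smallest unadjusted p of this contrast, Acta2 departed by -1.21 (SE 0.30), Col3a1 by -0.52 (SE 0.14), Hsd11b1 by 0.76 (SE 0.22) and Aldh1l1 by 0.76 (SE 0.23), each with an adjusted p of 1.00.

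Hsd11b1 differed by 1.02 at 4 pm and by 0.35, 0.65, 0.52, -0.09 and -0.14 at 12 am, 4 am, 8 am, 12 pm and 8 pm. Acta2 differed by -1.35 at 4 pm and, in the same order, by 0.10, -0.17, -0.56, -0.51 and 0.42. Lpl differed by -0.57 at 4 pm and by -0.95, -0.84, -0.81, -0.74 and -1.04 at the others. Gstm2 was far below 0 at each time, at -3.04 at 4 pm and -3.37, -2.95, -2.77, -2.78 and -3.33 at the others. Aldh1l1 was at 0.89 at 4 pm and at -0.16, 0.12, 0.09, 0.17 and 0.44 at the others.

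**Figure D5:**
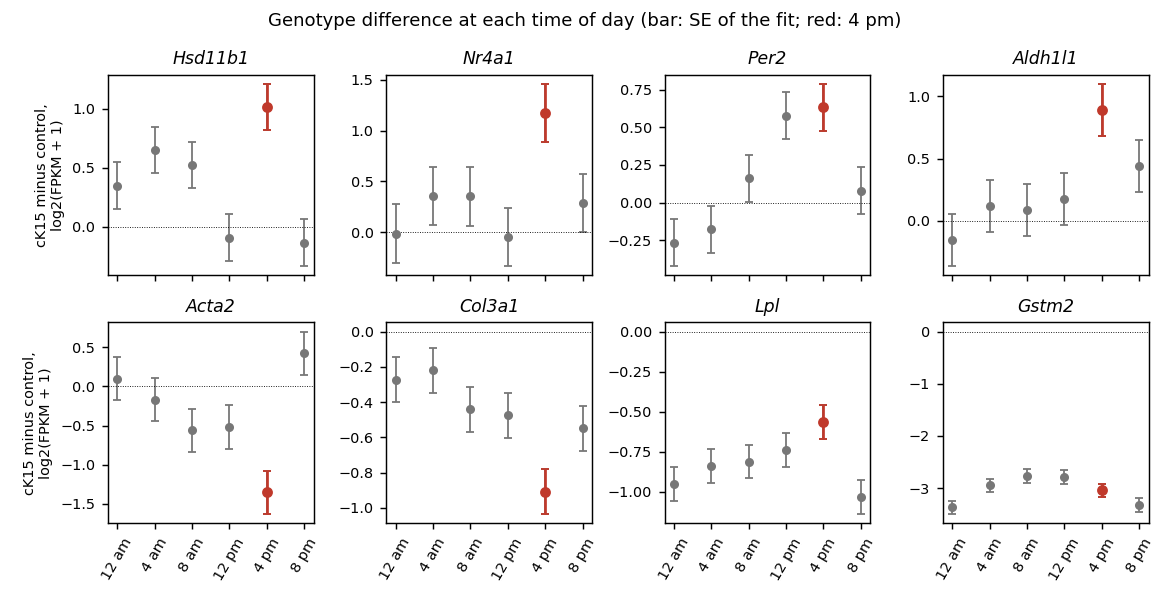
Difference between cK15 and control (y axis, log2(FPKM + 1)) at each of the 6 times of day (x axis) for 8 genes, with bars for the SE of the fit and red for 4 pm. In Hsd11b1, Nr4a1, Aldh1l1, Acta2 and Col3a1 the point of 4 pm lies farthest from 0, in Per2 it lies beside that of 12 pm (0.58), and no departure of 4 pm passed the test.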

How the data were processed

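Ribosome-depleted total RNA of mouse heart apex was sequenced as 100 bp pairs, per the labels' protocols. The authors deposited FPKM values per gene symbol and library in a table for each genotype (23352 entries). The submitters' processing notes name the build mm10 and the tools GSNAP and HTSeq. The sources used here give neither the annotation nor the strand setting nor the FPKM program. Because FPKM is relative to the library total, abundant genes can lower the rest. Counts were not used here, depth is unknown, and each group mean rests on 3 libraries, with the spread taken over all 36.

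Values of log2(FPKM + 1) were fitted in R 4.3.3 with limma 3.58.1, as 12 group means over 36 libraries (24 residual degrees of freedom) with variance trend and robust moderation. Genes with a mean of at least 1 FPKM were tested, with Klf15 added, and p-values were adjusted by Benjamini-Hochberg over all 10600. Symbols that had become dates (27) or occurred more than once (2) were tested but not named. On simulated data for the 4 pm difference over 10599 genes, 80% of changes of 1 log2 unit and 99% of 2 units were recovered, with 9 false calls. For the departure of 4 pm from the other times, 80% and 98% were recovered, with 9 false calls. The simulated libraries varied independently, without a set that stands apart and without genotype differences at the other times. The real libraries varied together in pairs, so these rates may not hold for them.

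Named genes are Klf15, the 20 highest and lowest passing differences, up to 4 passing members of each list by adjusted p, the first 2 measured members of each list, and up to 10 of smallest p in the departure of 4 pm; others are said to be chosen after their values were seen. A few genes that this rule would name are not reported here. The members, the 28 gene lists and the 15 marker lists were chosen with earlier results of these data known, and no list was tested as a set. Alternatives changed the pseudocount, filter, scaling, variance model, block, library set and each library; their effect is given at the end.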

Additional observations from a re-analysis of the deposited data

How the results depend on the processing

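Under the 19 alternatives, 50 of the 139 passing genes passed wherever they had a value, 49 lower and 1 higher, and none of the named genes reversed direction. Passing genes numbered 86 to 115 without each single library of 4 pm, with rises of 5 to 15 and falls of 78 to 100; the fewest rises, 5, came without control replicate 3. With the 6 libraries of 4 pm fitted alone by limma, 65 genes passed (6 rose, 59 fell), of which 62 were among the 139. List members that passed numbered 28 against 52, in a fit of fewer samples. Calls lost in that fit included those of Lpl (adjusted p = 0.067), Plin2 (0.074), Gstm1 (0.087), Prodh (0.087), Pde8a (0.144), Kcnip2 (0.151), Acat1 (0.199) and Htra1 (0.331). A term for the library set, the 12 libraries that stand apart against the other 24, gave 318 passing genes (93 rose, 225 fell), including all 139, and 82 list members; the cause was not tested. Leaving out only cK15 replicate 1 and control replicate 2 of 4 pm, an alternative added after seeing the data, gave 80 (6 rose, 74 fell). Rises numbered 34 with median-ratio rescaling and 36 with quantile normalization, against 21; the cause was not tested. Replicate numbers are shared by 2 pairs of 4 pm libraries only. The deviations of same-numbered libraries correlated with r = 0.313 and 0.277, those of cK15 replicate 1 and control replicate 2 with r = 0.533, and those of the other pairs across genotypes with r = -0.347 to 0.056. The libraries thus varied together in pairs, but the labels do not say what a number marks, so the pairing is a hint from the data and not part of the design. With the replicate block 40 genes rose and 179 passed. Non-overlapping genes numbered 795 with a filter of at least 5 FPKM, against 1258, since fewer genes were tested. Without a filter 1 gene departed at 4 pm from the other times. The fit of the 6 libraries alone could not give the departure. Absolute depth is unknown, so the limit on low genes such as Klf15 cannot be stated.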

Other observations

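Several genes outside the lists, chosen here after their values were seen, also fell at 4 pm. Gnmt, which methylates glycine and uses up S-adenosylmethionine, was at 1.85, 1.004 and 2.15 FPKM in control and 0, 0 and 0.291 FPKM in cK15 (log2 difference -1.27, adjusted p = 0.00738), and its call was lost without control replicate 4 (adjusted p = 0.0709, and 0.165 without the pair that stands apart). Dcxr, the xylulose reductase, was at 21.1, 21.96 and 23.1 FPKM in control and 7.72, 8.29 and 9.04 FPKM in cK15 (log2 difference -1.30, adjusted p = 4.70e-05). Naprt1, which starts NAD synthesis from nicotinic acid, was at 21.2, 14.5 and 17.9 FPKM in control and 10.9, 9.25 and 6.73 FPKM in cK15 (log2 difference -0.93, adjusted p = 0.0103), and its call was lost without cK15 replicate 4, control replicate 2 or control replicate 4 (adjusted p 0.0505 to 0.130, and 0.0627 without the pair that stands apart). Alad, an early enzyme of haem synthesis, was at 84.6, 84.3 and 89.4 FPKM in control and 63.6, 71.4 and 66.4 FPKM in cK15 (log2 difference -0.36, adjusted p = 0.0291), and its call was lost without any 1 of the libraries other than cK15 replicate 3 (adjusted p 0.0728 to 0.158, and 0.286 without the pair that stands apart). In each of them all cK15 libraries lay below all control libraries, and 2 of the cK15 libraries listed Gnmt at 0.

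Some differences among the largest at 4 pm did not pass, and the libraries of 1 genotype lay far apart in several of them. Pttg1 (securin, an inhibitor of separase) was at 241, 263 and 252 FPKM in control and 123, 15.7 and 10.5 FPKM in cK15 (log2 difference -3.13, adjusted p = 0.136). Cyfip2, a subunit of the complex that drives actin branching, was at 53.3, 44.8 and 60.4 FPKM in control and 36.5, 8.56 and 5.99 FPKM in cK15 (log2 difference -1.98, adjusted p = 0.281). In both, cK15 replicate 1, one of the libraries that stand apart, lay between the other cK15 libraries and control. Erdr1 was at 11.8, 0 and 0 FPKM in control and 18.7, 13.03 and 33.3 FPKM in cK15 (log2 difference 3.18, adjusted p = 0.127), with control replicate 2, the other such library, alone above 0 in control. Angptl4, a secreted inhibitor of lipoprotein lipase, was at 3.48, 6.52 and 5.16 FPKM in control and 0.434, 2.59 and 1.02 FPKM in cK15 (log2 difference -1.44, adjusted p = 0.153), and all its cK15 libraries lay below control.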
